A study of Mus musculus with 19 samples.

Results

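The guanylate-binding protein (Gbp) cluster on mouse chromosome 3 was represented by 45 accessible regions out of 140383 in the consensus peak list of an ATAC-seq study of macrophages. ATAC-seq marks open chromatin by the insertion of sequencing adapters by Tn5 transposase. The 45 peaks were chosen by position alone, as those overlapping bases 142170000 to 142370000 of chromosome 3 in build mm39 by at least 1 base. The nearest peaks outside lay 4911 bp before the window, with a fold of 7.28, and 10500 bp after it, with a fold of 11.7. The first peak inside had a fold of 15.3 and the last a fold of 23.5.

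The 19 samples were primary bone marrow-derived macrophages in 10 groups, 10 samples of Smarca5-/- cells and 9 of wild-type cells. Smarca5 encodes the ATPase of ISWI chromatin remodelling complexes. For each genotype, cells were untreated, given LPS at 10 ng/ml for 1 or 2 h, or exposed to interferon beta (100 U/ml) for the same times. Every group had 2 samples except wild-type cells given interferon beta for 1 h, which had 1. The Smarca5-/- cells came from mice with floxed Smarca5 (Smarca5lox/lox) and Csf1r-Cre. The wild-type mice also carried Csf1r-Cre, a recombinase under a promoter of the macrophage lineage. Per the labels' protocols, the cells were differentiated over 7 days with daily 4-hydroxytamoxifen. The list gives 1 set of values per peak for all samples together. It therefore holds no value per genotype or treatment, no replicate error and no depth, and no comparison between groups was made. The labelled cell type could not be checked against marker genes, because gene positions in mm39 were not used here.

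Guanylate-binding proteins are large GTPases of the dynamin family that macrophages make in quantity after exposure to interferons. They gather on vacuoles and membranes of intracellular bacteria and parasites, and help to expose the contents to the cytosol, where caspase-11 recognises bacterial LPS. Transcription of interferon-stimulated genes depends largely on short promoter elements. The interferon-stimulated response element (ISRE) is bound by interferon regulatory factors, among them IRF9, whereas the gamma-activated site (GAS) was first described in genes that respond to interferon gamma. By the order of genes in RefSeq (GRCm38.p6), the cluster reads Gbp5, Gbp7, Gbp3, Gbp2b and Gbp2, all on the + strand. Gbp2 is a prenylated member that is recruited to pathogen vacuoles, Gbp5 has been tied to inflammasome activation and Gbp7 to oxidative defence in mouse macrophages.

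The promoters are shown because all 5 genes share the same kind of element close to their start. The sequences are the 180 bases before the annotated start, 5′ to 3′ on the gene's strand, from RefSeq with build GRCm38.p6. Their coordinates belong to that build and cannot be set against the mm39 coordinates of the peaks. Capitals mark matches to the ISRE core, searched on both strands as 2 copies of GAAA separated by 2 bases of any kind, so that a match on the opposite strand shows 2 copies of TTTC.
Gbp5, GRCm38.p6 chr3:142496754-142496933, + strand: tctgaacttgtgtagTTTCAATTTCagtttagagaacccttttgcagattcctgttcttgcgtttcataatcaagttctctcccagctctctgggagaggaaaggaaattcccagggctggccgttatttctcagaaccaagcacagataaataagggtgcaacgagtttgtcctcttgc
Gbp7, GRCm38.p6 chr3:142530156-142530335, + strand: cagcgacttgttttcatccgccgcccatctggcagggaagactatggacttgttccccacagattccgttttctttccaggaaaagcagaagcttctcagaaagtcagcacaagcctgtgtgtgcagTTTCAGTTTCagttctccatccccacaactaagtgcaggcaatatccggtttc
Gbp3, GRCm38.p6 chr3:142559864-142560043, + strand: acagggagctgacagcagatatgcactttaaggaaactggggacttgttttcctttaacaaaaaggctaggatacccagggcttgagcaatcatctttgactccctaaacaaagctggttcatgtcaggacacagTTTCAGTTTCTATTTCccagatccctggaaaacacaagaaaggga
Gbp2b, GRCm38.p6 chr3:142594667-142594846, + strand: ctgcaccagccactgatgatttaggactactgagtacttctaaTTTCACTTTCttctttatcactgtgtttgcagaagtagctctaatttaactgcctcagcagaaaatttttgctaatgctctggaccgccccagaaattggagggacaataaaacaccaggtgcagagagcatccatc
Gbp2, GRCm38.p6 chr3:142620483-142620662, + strand: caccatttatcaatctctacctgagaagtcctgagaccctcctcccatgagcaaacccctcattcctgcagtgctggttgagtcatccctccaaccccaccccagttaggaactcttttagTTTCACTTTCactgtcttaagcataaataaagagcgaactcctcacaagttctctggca

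All 5 Gbp genes of the cluster held the ISRE core in a RefSeq promoter window, which runs from 250 bases before to 50 bases after the start. Among all 32851 promoter windows of the table, 3.44% held it, and 3.99% of all genes had it in at least 1 window. The match began 59 bases before the start in Gbp2, 53 bases in Gbp7 and 45 bases in Gbp3, and lay farther out in Gbp2b, at 137 bases, and in Gbp5, at 165 bases. Gbp3 had 2 overlapping matches, the second starting 39 bases before the start, and a second annotated start of Gbp3 had 0. In every gene the element lay in the same orientation. A longer form, with C after the second GAAA, was found in 4 of the 5 genes and was missing from the Gbp2b window. It was held by 0.944% of all genes and 0.819% of all promoter windows.

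The other elements set the 5 promoters apart. The GAS core TTCNNNGAA occurred 2 times each in Gbp5 and in Gbp7 and in none of the other three windows, against 8.30% of all promoter windows with at least 1 match. Both elements together were found in 0.454% of all promoter windows. In Gbp7 the GAS matches began 106 and 87 bases before the start and were followed by the ISRE, while in Gbp5 they began 245 and 52 bases before the start on either side of the ISRE. The AP-1 motif TGANTCA was present in Gbp2 at 102 bases before the start and in Gbp2b after the start, against 7.81% of all windows. The C/EBP motif TTGCNNAA was present in Gbp3 and Gbp2b, against 10.8% of all windows. The PU.1 motif GGAAGT was present in Gbp3, Gbp2b and Gbp2, in each case after the start, against 23.8% of all windows. A loose NF-kB pattern, GGG and CC separated by 5 bases of any kind, matched 4 of the 5 genes and also 50.8% of all windows. In Gbp3 and Gbp2 the PU.1 and NF-kB matches overlapped each other.

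**Figure D1:**
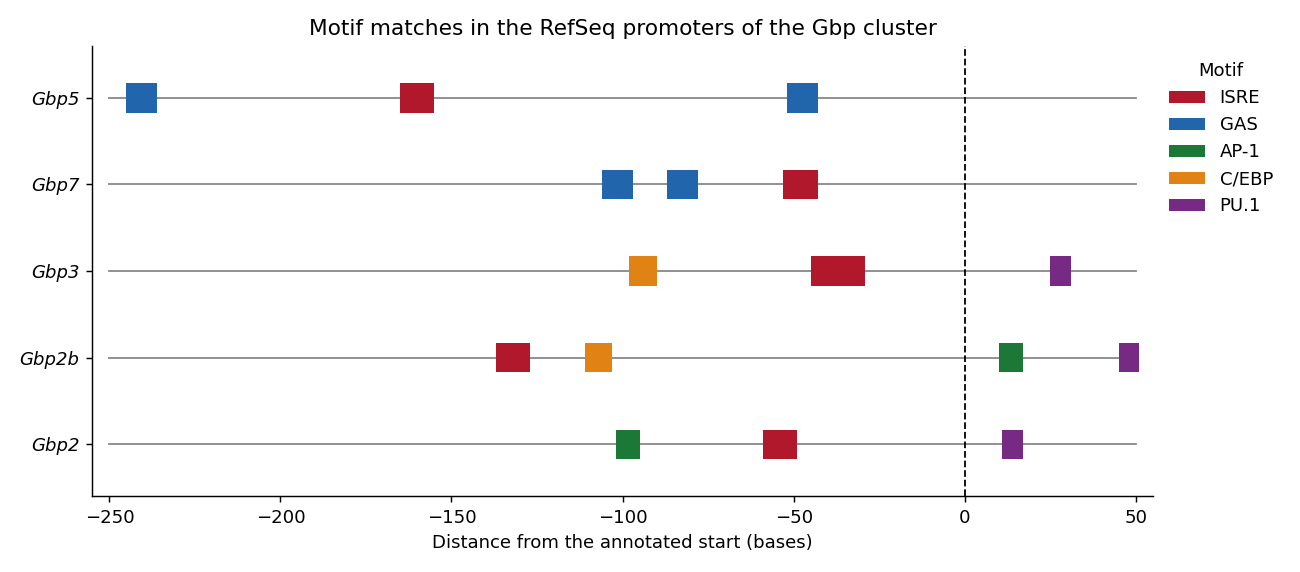
Matches to 5 motifs in the RefSeq promoter windows of the 5 Gbp genes, by distance from the annotated start in bases (dashed line), with genes in chromosomal order from top to bottom. The ISRE (red) lies before the start in every gene, nearest to it in Gbp3, where the 2 matches begin at 45 and 39 bases, while GAS (blue) appears only in Gbp5 and Gbp7 among these windows.

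The same elements were counted in a list of interferon pathway genes. Of 33 listed genes, 25 had an entry in the promoter table. The other listed genes were not used here. Outside the chromosome 3 cluster, the ISRE core was found in 6 of 20 matched genes, against 3.99% of all genes in the table. These were Stat2, a transducer of type I interferon signals, and 5 immunity-related GTPases, Irgm1, Irgm2, Igtp, Tgtp1 and Tgtp2, which act on pathogen vacuoles alongside the guanylate-binding proteins. GAS was found in 8 of the 20, against 9.55% of all genes. They were the receptor subunits Ifnar1 and Ifnar2, the transcription factors Irf1 and Irf8, and the GTPases Irgm2, Igtp, Tgtp1 and Tgtp2. The PU.1 motif was found in 6 of the 20, against 26.5% of all genes, and the NF-kB pattern in 15, against 53.5%. AP-1 was found in 1 of the 20, against 8.97% of all genes, and C/EBP in 0, against 12.2%. These counts describe letters in a window and not binding. Genes of 1 family, such as the Gbp genes or the 5 immunity-related GTPases, were each counted although they are not independent.

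The cluster was densely accessible. Its 45 peaks correspond to 225 peaks per Mb, 4.95 times the 45.5 peaks per Mb of chromosome 3 as a whole. Among 13125 windows of the same 200 kb length tiled over the autosomes and X, the median held 5 peaks and 1.56% held at least 45. On chromosome 3, 10 of 798 such windows held as many. The peaks covered 13403 bases, or 6.70% of the window, and 29 of 44 neighbouring pairs were within 5000 bp of each other. By summit, 4 peaks lay before the Gbp5 position of the selection rule (near 142200000), 28 between it and the Gbp2 start (near 142326400), and 13 after that start. The longest stretch without a peak, 20419 bp, ran from 142304076 to 142324496 and ended just before the peaks at Gbp2. Starts of Gbp7, Gbp3 and Gbp2b in mm39 were not used here, so peaks between Gbp5 and Gbp2 are given by position only.

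The start of Gbp2 lay inside one of the strongest regions of the cluster. This peak, chr3:142326128-142326672 (mm39), was 545 bp wide with its summit 54 bp after the start named in the rule. It had a fold of 17.7, the authors' enrichment over local background, and a −log10 q of 358, higher than 91.8% of the list. Directly upstream lay 2 narrower peaks, a 168 bp peak with a fold of 10.0 and a −log10 q of 188 at a distance of 793 bp, and a 119 bp peak with a fold of 6.26 and a −log10 q of 86.4 at 1846 bp. Accessible chromatin at Gbp2 extended over 3 separate regions that weakened with distance upstream. On the other side, the next peak, 721 bp after the start, was far weaker, with a −log10 q of 19.1 and a fold of 3.38.

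Around the Gbp5 position of the rule, accessibility was spread over several regions. That position is given only as near 142200000, so distances from it do not measure distance from the Gbp5 start. The peak nearest to the Gbp5 position of the rule, chr3:142199339-142199827, was 489 bp wide with its summit 571 bp before that position. Its fold was 12.3 and its −log10 q 254. A second peak of nearly the same −log10 q, 253, lay 2603 bp after the position, with a fold of 9.68 and a width of 452 bp. A peak of fold 10.8 and −log10 q 160 lay 4988 bp after it, and one of fold 11.2 and −log10 q 129 lay 3584 bp before it. Another, 3333 bp after the position, was a weak peak of fold 4.13 and −log10 q 12.7. The peaks of −log10 q 254 and 253 were nearly equal, so none stood out around this position as the peak at the Gbp2 start did. Which of these peaks, if any, holds the Gbp5 start was not determined.

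Between Gbp5 and Gbp2, where Gbp7, Gbp3 and Gbp2b lie by gene order, 3 further peaks exceeded or approached the Gbp2 peak in −log10 q. The region at chr3:142235718-142236407 was the most significant of the cluster, with a −log10 q of 413, a fold of 21.8 and a width of 690 bp. It ranked 9568th of the list by −log10 q. The peak at chr3:142296239-142296732 had the highest fold of the cluster, 24.1, with a −log10 q of 303. The peak at chr3:142266131-142266687 had a fold of 15.7 and a −log10 q of 294, and was flanked by a 139 bp peak of fold 11.8 and −log10 q 245 and by a weak 161 bp peak of fold 4.98. In all, 8 of the 45 members had a −log10 q above 200. The lowest of these, 231, was higher than 86.4% of the list, and the next member, 188, than 83.5%. Of the 8, 6 lay between the Gbp5 and Gbp2 positions, as did 28 of all 45 peaks. The others of highest fold were chr3:142351655-142351963 after Gbp2, with a fold of 23.5, chr3:142256015-142256383 with 22.4, chr3:142282952-142283347 with 22.02, and chr3:142184208-142184452 before Gbp5, with 21.96.

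**Figure D2:**
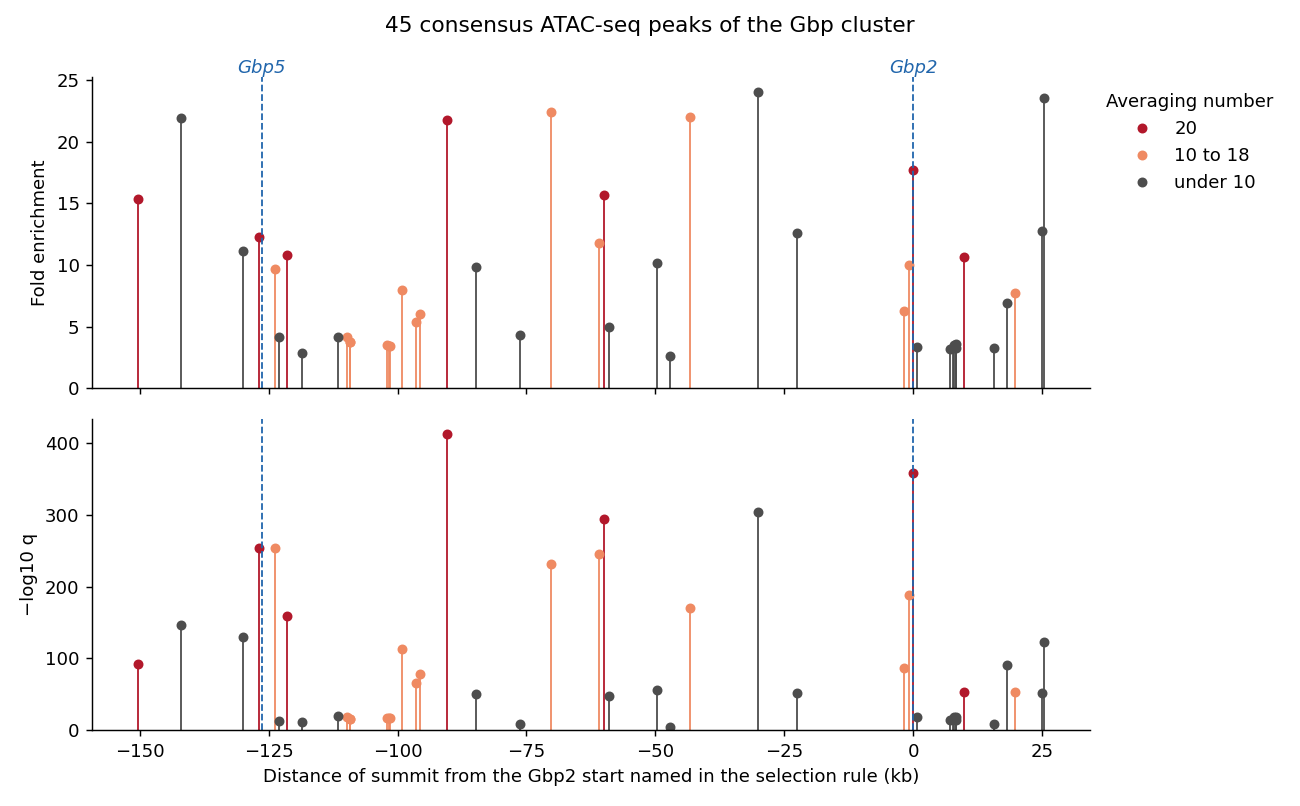
Fold enrichment (top) and −log10 q (bottom) of the 45 peaks against the distance of their summit from the Gbp2 start named in the selection rule, in kb; dashed lines mark the Gbp5 and Gbp2 positions and colours the averaging number. Strong peaks occur at intervals along the cluster, up to a fold of 24.1, and runs of weak peaks with folds under 5 follow the Gbp5 and Gbp2 positions.

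A large part of the cluster consisted of weak regions. A fold under 5 was found for 19 of 45 peaks, or 42.2%, against 10.4% of the list. The median fold was 6.95 (95% order-statistic interval 4.13 to 10.7), against 9.85 over the list, while the median width was 245 bp (187 to 309), against 196 bp. The intervals treat peaks as independent, although peaks of 1 locus are not replicates. At the strong end the cluster was close to the list, with 6 peaks (13.3%) of fold 20 or more against 15.0%. A fold of 5 to under 10 was less frequent, with 8 peaks (17.8%) against 40.5%, while 12 peaks (26.7%) had a fold of 10 to under 20, near the 34.1% of the list. By fold, 8 peaks (17.8%) lay at or above the upper quartile of the list, and by −log10 q 14 peaks (31.1%) did, against 25.0% of the list by definition. Dense windows had many weak peaks elsewhere too. Over the 205 other windows with at least 45 peaks, the share of peaks with a fold under 5 had a median of 18.9% and quartiles of 12.8% and 27.1%. In 10 of these 205 windows it was as high as in the Gbp cluster or higher. The median fold per window had a median of 8.34 and quartiles of 7.26 and 9.06. In 37 of the 205 windows it was 6.95 or lower.

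**Figure D3:**
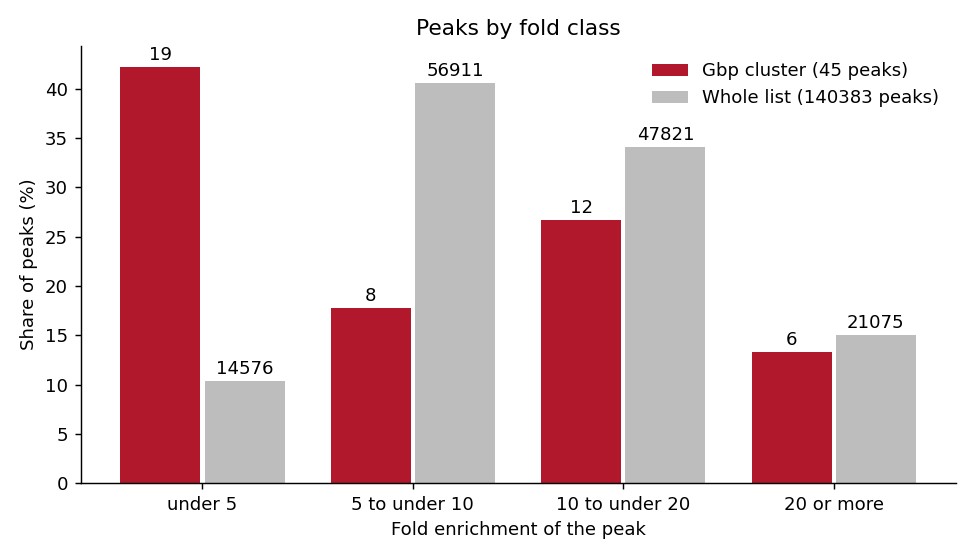
Share of peaks (%) in 4 classes of fold enrichment for the Gbp cluster (red) and the whole list (grey), with the number of peaks above each bar. The class under 5 holds 42.2% of the Gbp peaks and 10.4% of the list, and the class of 20 or more holds 13.3% and 15.0%.

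Of the 19 weak peaks, 16 lay within 25 kb after the Gbp5 or the Gbp2 position. Within 25 kb after the Gbp5 position, in the direction of transcription, 9 of 11 peaks had a fold under 5, against 0 of 4 within 25 kb before it. Within 25 kb after the Gbp2 start, 7 of 12 peaks had such a fold, against 0 of 3 before it. Within 10 kb the counts were 2 of 4 after Gbp5 and 6 of 8 after Gbp2, against 0 of 2 before each. These distances were chosen after the values were seen, and no test was made. The longest run held 8 consecutive peaks from 142207791 to 142224908, with folds of 2.84 to 4.15, −log10 q between 12.04 and 20.1 and widths of 59 to 440 bp. A second run of 6 peaks from 142327044 to 142334841 followed the Gbp2 start, with folds of 3.14 to 3.55 and −log10 q of 14.6 to 19.1. It included the narrowest peak, chr3:142334638-142334669, of 32 bp and fold 3.55, which touched its neighbour. The lowest fold, 2.57 with a −log10 q of 3.95, belonged to chr3:142279186-142279321. The widest peak, chr3:142344127-142345326 after Gbp2, measured 1200 bp and had a fold of 6.95 with a −log10 q of 90.6.

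Many peaks of moderate fold were more significant than their fold alone would place them. The −log10 q of each peak was divided by the median −log10 q of list peaks in the same percentile of fold. The ratio was at least 3 in 14 of 45 peaks (31.1%), against 11.4% of the list. These 14 peaks had folds of 4.98 to 17.7 and −log10 q of 47.8 to 358. They fell into 4 stretches and 1 single peak. The first stretch was 4 of the 5 peaks around the Gbp5 position, with ratios up to 7.96, and the second was 3 peaks from 142227143 to 142230873, before the most significant region. The third was the 3 peaks from 142265450 to 142267510, and the fourth the Gbp2 peak with its 2 upstream neighbours. The single peak was the widest one. None of the 6 peaks of fold 20 or more was among them, with ratios of 0.525 to 2.00. Among the 205 other dense windows, 55 had as high a share of such peaks or higher, so this feature was common in peak-dense regions.

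**Figure D4:**
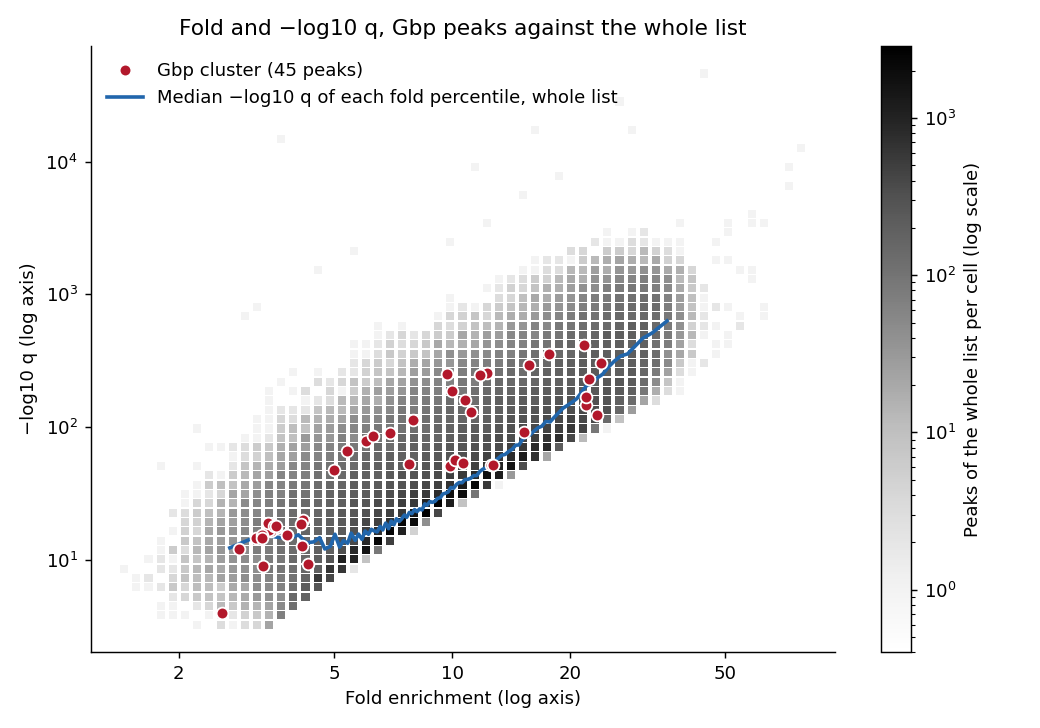
Fold enrichment against −log10 q on log axes for the 45 Gbp peaks (red) over the density of the 140383 peaks of the list (grey), with the median −log10 q of each fold percentile as a blue line. 14 Gbp peaks of fold 4.98 to 17.7 lie at least 3 times above the line, while the 6 of fold 20 or more lie near it.

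By their decimals, the deposited scores, folds and −log10 q values are averages, and their denominators differ along the cluster. For each peak, the averaging number is the smallest whole number that, as a multiplier, makes its score whole and leaves its fold and −log10 q with at most 5 decimals. It is a lower limit on the denominator of the mean, and which samples enter a mean is not stated. The largest value in the list was 20, more than the 19 samples, so the denominator is not simply a count of samples. An averaging number of 20 was reached by 7 of 45 peaks (15.6%), close to the 20.1% of the list. Over the 205 other dense windows this share had a median of 23.1%. In 169 of them it was as high as in the Gbp cluster or higher. From the score alone, 8.89% reached 20, against 14.6% of the list. The peak at the Gbp2 start then had 4, and the one nearest to the Gbp5 position of the rule had 10. With fold and −log10 q included, these 7 included the peak at the Gbp2 start and the peak nearest to the Gbp5 position of the rule. They also included the most significant region of the cluster and the peak at chr3:142266131-142266687. The others were chr3:142175792-142176068, chr3:142204907-142205112 and chr3:142336299-142336487. Their folds lay between 10.7 and 21.8, and 0 of the 27 peaks with a fold under 10 reached 20. Few such peaks did in the list, 9.56% of those of fold 5 to under 10 and 2.40% of those under 5.

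An averaging number of 7 or 14 was found for 9 of 45 peaks (20.0%), against 4.42% of the list. This class was picked out after the values were seen and was not counted in the other dense windows. Since no averaging number in the list exceeded 20, a value of 14 fixes the denominator at 14. That is below the 20 reached by the peaks at the Gbp2 start and nearest to the Gbp5 position of the rule. The peak of −log10 q 253 after that position had an averaging number of 16. In the first run of weak peaks, 6 of 8 had an averaging number of 12 or 14, a class that made up 6.98% of the list. Both the run and this class were likewise picked out after the values were seen. The 2 more significant peaks that start at 142229720 and 142230496 also had 14, with folds of 5.39 and 6.04. In the run after Gbp2 the averaging number lay between 1 and 8. The 2 peaks flanking the Gbp2 peak upstream had averaging numbers of 18 for the nearer and 12 for the farther, and the weak peak downstream had 1. Along these 4 regions at Gbp2, fold, −log10 q and averaging number were all highest at the start. Over the cluster the averaging number did not simply follow fold: 1 of 6 peaks of fold 20 or more reached 20, against 6 of 12 of fold 10 to under 20, and the peak of highest fold had 2. In the list, 37.9% of peaks of fold 20 or more reached 20, against 30.2% of those of fold 10 to under 20 and 2.40% of those under 5. Whether the regions with smaller denominators belong to particular genotypes or treatments was not tested.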

How the data were processed

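The deposited file is 1 consensus peak list for all samples. The build was mm39, per the submitters' processing notes, which name MACS2 2.2.7.1, deepTools 3.5.1, STAR 2.7.9a and Picard 2.27.4 without a role. How peaks were called and merged is not given in the sources used. The deposited values are a score (about 10 times −log10 q), a fold over local background (a ratio), a −log10 q and a summit offset. That score, fold and −log10 q are averages is read from their decimals. They were used only to describe and rank peaks within the list. Coordinates were read as counted from 1. No test was made, since no value belongs to a sample or group, and depth is unknown.

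Averaging numbers (tolerance 0.001) and motif searches were tested on simulated data. Named peaks were those nearest to the Gbp5 and Gbp2 positions, the 5 of highest fold, the widest, the narrowest and the one of lowest fold, and others were named after their values were seen. Members and lists were chosen with earlier results of these data known. Planned counts of peaks at gene starts and at cell type marker genes were not run, because the gene table is of build GRCm38.p6. Stricter thresholds, other overlaps, other window edges, merging and other motif letters were tried as alternatives. Software was pandas 2.3.3, scipy 1.17.1, numpy 2.4.6 and matplotlib 3.10.9 under Python 3.11.15.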

Additional observations from a re-analysis of the deposited data

How the results depend on the processing

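Of 43 alternative values over 9 results, 38 stayed within the 95% interval of their value or, for counts, within 1.5 times. This count is no measure of stability. Choosing peaks by summit or by width inside the window kept the same 45 peaks, so those values could not change. Window edges moved by 10 kb gave 46 or 44 peaks. The intervals also treat peaks of 1 locus as independent. Alternatives for the shares of weak peaks, of high ratios and of averaging number 20 were chosen after seeing the data. Keeping peaks whose −log10 q reached the list's median left 27 peaks, with a median fold of 11.2 (15.7 over the list filtered alike). Then 3.70% had a fold under 5 (list 1.72%) and 51.9% a ratio of at least 3 (list 22.2%). These follow from removing weak peaks. From the score alone, 8.89% had an averaging number of 20 (list 14.6%), against 15.6% from all columns read. A ratio of at least 5 was reached by 11.1% (list 4.19%). The longer ISRE left 4 of 5 genes. Other distances for peaks at gene starts were not run, since the starts were not used. No paired analysis was possible because each peak has 1 value pooled over samples.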
